A study of Mus musculus with 18 samples.

Results

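Prox1, C1ql2, Dsp, Lct, Calb1, Fibcd1, Wfs1 and Zbtb20 are commonly used to tell the fields of the hippocampus apart, and their mRNA was followed here through 3 brain regions of WT and Pcm1-/- mice. The 8 genes were taken as a list of markers of the dentate gyrus and CA fields and matched by symbol to the Ensembl identifiers of the count data. They are 8 of the 38561 genes counted, and all 8 were among the 17545 genes tested. The mice were adults on a C57 Bl6J background, either WT or homozygous for a gene-trap allele of Pcm1 that is present in every tissue, and the genotypes were littermates. Pcm1 encodes pericentriolar material 1, a scaffold of the centriolar satellites around the centrosome. Frontal cortex, striatum and hippocampus were dissected from 3 animals of each genotype, which gave 6 groups of 3 libraries. A whole region was homogenized for each library, so every value below is an average over the fields and cell types of that piece of tissue.

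The hippocampus is built from the dentate gyrus and the cornu ammonis (CA) fields, which are joined into a chain. Granule cells of the dentate gyrus receive cortical input and send mossy fibers to CA3, CA3 pyramidal neurons project to CA1, and CA1 sends the output onward. Each field keeps its own set of transcripts in the adult, which is why single genes can stand for a field. Prox1 encodes the homeobox transcription factor that sets and maintains granule cell identity. C1ql2 encodes a secreted C1q-like protein of mossy fiber synapses, Dsp encodes desmoplakin, a linker between cell junctions and intermediate filaments, and Lct encodes lactase, better known from the intestine. Calb1 encodes the calcium buffer calbindin, which mature granule cells share with striatal projection neurons and with neurons of the upper cortex. Fibcd1 and Wfs1 mark CA1, the first as a membrane protein with a fibrinogen-like domain and the other as the endoplasmic reticulum protein wolframin. Zbtb20 encodes a zinc finger repressor needed for hippocampal neuron identity and is present in granule cells, CA1 and glia.

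Each library held between 24950537 and 33405081 counts on genes, and 86.8% to 89.2% of the reads entering the counting were assigned to a gene. Levels are given as CPM, counts scaled to a common library size after TMM normalization. Pcm1 itself lay between 119.9 and 171.7 CPM in the WT libraries and between 11.8 and 17.6 CPM in the Pcm1-/- libraries, and every library matched its label. Striatal projection neuron genes summed to between 4914 and 6373 CPM in the striatum libraries and to 190 CPM at most elsewhere, and the 5 cortical layer genes were highest in the frontal cortex, at 505 to 555 CPM. The hippocampus libraries also carried transcripts of tissue that borders the hippocampus. Ttr, the main transcript of the choroid plexus, ranged there from 164.1 to 5837 CPM, and Tcf7l2, a gene of thalamic neurons, from 6.77 to 108.2 CPM. WT striatum replicate 3 stood apart from the other striatum libraries, with 5621 CPM of Ttr against 2.93 to 125.6 CPM, and with 27.1 CPM of Tcf7l2 against 6.37 to 8.97 CPM. All WT striatum libraries were run on lane 5, while those of Pcm1-/- striatum were run on lanes 3 and 4, and there an effect of lane and one of genotype cannot be told apart. In each of the 6 groups, 1 library had more than trace counts on Y-linked genes. Each of the 6 animals gave all 3 regions, and p-values between genotypes measure the spread between animals.

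The promoters of 4 dentate genes are shown because these genes shared their highest hippocampus library in either genotype, as Zbtb20 also did. In the mouse genome build GRCm38, Prox1 (ENSMUSG00000010175) spans chr1:190118035-190170714 on the minus strand, C1ql2 (ENSMUSG00000036907) chr1:120340582-120343174 on the plus strand, Lct (ENSMUSG00000026354) chr1:128284756-128328318 on the minus strand and Dsp (ENSMUSG00000054889) chr13:38151294-38198577 on the plus strand. The RefSeq promoter table (GRCm38.p6) held a window for 7 of the 8 genes. The 250 bases before the annotated transcription start are printed 5′ to 3′ on the strand of the gene, with each CAGATG, or its reverse complement CATCTG, in capitals. These letters are 1 form of the E-box, the class of sites read by the basic helix-loop-helix factors of granule cell differentiation. The windows are chr1:190170828-190171077 (Prox1, the upstream one of its 2 starts), chr1:120340332-120340581 (C1ql2), chr13:38151044-38151293 (Dsp), chr1:128328319-128328568 (Lct) and, as the other window that held the motif, chr5:36988983-36989232 (Wfs1).
Prox1: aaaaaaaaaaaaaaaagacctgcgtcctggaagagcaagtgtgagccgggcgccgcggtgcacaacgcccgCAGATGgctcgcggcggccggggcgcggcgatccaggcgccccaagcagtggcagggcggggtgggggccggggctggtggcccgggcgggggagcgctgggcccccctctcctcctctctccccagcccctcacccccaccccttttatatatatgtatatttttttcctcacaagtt
C1ql2: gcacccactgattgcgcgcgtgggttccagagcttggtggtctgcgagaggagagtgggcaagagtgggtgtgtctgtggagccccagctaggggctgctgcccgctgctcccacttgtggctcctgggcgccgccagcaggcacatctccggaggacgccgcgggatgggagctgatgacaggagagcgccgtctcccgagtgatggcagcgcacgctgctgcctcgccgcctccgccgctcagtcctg
Dsp: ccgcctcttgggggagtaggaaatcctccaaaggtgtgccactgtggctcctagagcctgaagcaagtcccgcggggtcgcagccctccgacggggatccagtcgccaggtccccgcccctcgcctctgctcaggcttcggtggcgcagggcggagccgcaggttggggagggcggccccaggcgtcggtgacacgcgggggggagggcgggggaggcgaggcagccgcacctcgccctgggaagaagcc
Lct: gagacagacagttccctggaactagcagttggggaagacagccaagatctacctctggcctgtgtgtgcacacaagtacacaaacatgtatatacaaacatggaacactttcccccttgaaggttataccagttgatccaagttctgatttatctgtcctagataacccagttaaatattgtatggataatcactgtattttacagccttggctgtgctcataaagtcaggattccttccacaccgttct
Wfs1: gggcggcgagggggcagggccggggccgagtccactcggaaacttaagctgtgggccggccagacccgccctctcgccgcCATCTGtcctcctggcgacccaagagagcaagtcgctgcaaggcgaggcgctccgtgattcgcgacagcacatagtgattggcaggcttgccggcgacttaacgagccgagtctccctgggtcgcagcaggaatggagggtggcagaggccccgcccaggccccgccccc
The motif occurred once in the Prox1 window, beginning 179 bases before the start, and once in the Wfs1 window, beginning 170 bases before the start. The windows of C1ql2, Dsp, Lct, Fibcd1 and Zbtb20 and the other Prox1 window did not hold it. Over all 32851 windows of that table, 14.4% held it on either strand. The windows also differed in GC content. Dsp (72.4%), Fibcd1 (71.6%), Wfs1 (69.6%), C1ql2 (68.8%) and Prox1 (64.8%) were GC-rich against a median of 52.4% over all windows, while Zbtb20 (44.8%) and Lct (42.8%) lay below it.

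The other members lie on other chromosomes and are protein-coding as well. Calb1 (ENSMUSG00000028222) spans chr4:15881264-15908064 on the plus strand, Fibcd1 (ENSMUSG00000026841) chr2:31813290-31846005 on the minus strand, Wfs1 (ENSMUSG00000039474) chr5:36966104-36989205 on the minus strand and Zbtb20 (ENSMUSG00000022708) chr16:42875881-43642602 on the plus strand. Exons of Prox1 overlap those of Prox1os on the opposite strand, which was counted at 3.15 to 4.57 CPM in the hippocampus, far below Prox1. Exons of Dsp overlap those of Gm10129, and exons of Zbtb20 those of Gm9968, both on the opposite strand, and Gm9968 stayed at 0.221 CPM or less in all 18 libraries. The library kit kept strand, but the strand setting of the counting is not given in the sources used here, so these 3 genes carry that uncertainty.

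Per kilobase of exon, Wfs1 was the highest of the 8 in WT hippocampus at 43.1 ± 5.06 CPM per kb (SD, n = 3), followed by C1ql2 at 37.2 ± 8.74, Fibcd1 at 26.6 ± 6.46, Calb1 at 23.6 ± 4.30 and Prox1 at 19.3 ± 3.99. Lct (11.2 ± 2.45), Zbtb20 (10.8 ± 1.23) and Dsp (5.20 ± 0.937) closed the order. The value of Zbtb20 is divided by 30730 bases of exon, the union of many isoforms, and is therefore low for its count. In Pcm1-/- hippocampus Wfs1 (56.1 ± 6.91 CPM per kb), Fibcd1 (35.4 ± 3.88) and C1ql2 (31.4 ± 12.2) were again the first 3, with Fibcd1 now ahead of C1ql2.

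The 4 dentate genes Prox1, C1ql2, Dsp and Lct were higher in the hippocampus than in both other regions, in either genotype, with no overlap between libraries. Of all genes, 21.5% were higher without overlap in WT hippocampus than in WT frontal cortex and 20.3% than in WT striatum, and 25.2% and 27.3% in Pcm1-/- mice. C1ql2 had the highest level per kilobase of the 4, 37.2 CPM per kb in WT hippocampus against 0.319 in WT frontal cortex and 1.30 in WT striatum. In the WT hippocampus libraries, C1ql2 measured 94.3, 67.4 and 61.5 CPM. In the WT frontal cortex it measured 0.595, 0.837 and 0.479 CPM, and in the WT striatum 2.32, 2.31 and 3.18 CPM. The difference from the frontal cortex was 116-fold in WT (log2 fold change 6.86, SE 0.250, edgeR's quasi-likelihood test, adjusted p = 2.49e-07) and 56.1-fold in Pcm1-/- mice (5.81, SE 0.301, adjusted p = 2.04e-07). Among all genes tested, 29.8% differed between WT hippocampus and frontal cortex and 41.5% between those regions of Pcm1-/- mice.

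Lct separated the frontal cortex from the striatum as well. WT libraries had 89.9, 63.2 and 62.3 CPM in the hippocampus and 2.38, 2.59 and 3.13 CPM in the frontal cortex, but only 5, 1 and 3 reads, or 0.184, 0.0360 and 0.105 CPM, in the striatum. Its level was 637-fold higher in WT hippocampus than in WT striatum (log2 9.32, 95% interval 8.65 to 9.98), a fold that rests on those few striatal reads. The frontal cortex exceeded the striatum 24.1-fold in WT (log2 4.59, SE 0.367, adjusted p = 5.29e-06) and 12.5-fold in Pcm1-/- mice (log2 3.64, SE 0.382, adjusted p = 1.57e-05). Lct was the only one of the 8 genes that was higher in the frontal cortex than in the striatum, in both genotypes.

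Dsp had the lowest level per kilobase of the 4. It measured 60.7, 45.3 and 44.8 CPM in WT hippocampus, 1.47, 2.85 and 4.61 CPM in WT striatum and 0.385, 0.457 and 0.553 CPM in WT frontal cortex, where 11 to 15 reads were counted per library. The hippocampus exceeded the frontal cortex 107-fold in WT (log2 6.74, SE 0.392, adjusted p = 1.99e-06) and 214-fold in Pcm1-/- mice, where 2 of the 3 frontal cortex libraries had 2 and 3 reads. On the log2 scale the Pcm1-/- difference was 7.74, and it ran from 7.29 to 9.10 when single libraries were left out. Prox1 had the smallest regional differences of the 4. Its WT libraries had 200.2, 137.5 and 148.6 CPM in the hippocampus, 32.6, 35.1 and 47.6 CPM in the striatum and 15.5, 16.1 and 15.7 CPM in the frontal cortex. Hippocampus exceeded frontal cortex 10.3-fold in WT and 11.2-fold in Pcm1-/- mice, and striatum 4.20-fold and 5.60-fold, all called. WT striatum replicate 3, the library with choroid plexus and thalamus transcripts, had the highest WT striatal values of Prox1, Dsp and C1ql2.

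Fibcd1 had the regional order of Prox1, C1ql2 and Dsp, but not of Lct, although it marks another field. WT libraries had 91.2, 148.5 and 139.0 CPM in the hippocampus, 23.0, 16.6 and 14.0 CPM in the striatum and 9.70, 8.37 and 12.0 CPM in the frontal cortex. The hippocampus was 12.6-fold above the frontal cortex (log2 3.65, SE 0.241, adjusted p = 4.19e-06) and 7.04-fold above the striatum (2.82, SE 0.230, adjusted p = 6.83e-06) in WT, and 17.0-fold and 7.48-fold in Pcm1-/- mice. The smaller gap between frontal cortex and striatum, −0.84 on the log2 scale in WT (adjusted p = 0.0146), lost its call without WT striatum replicate 1 (adjusted p = 0.0548) or WT frontal cortex replicate 2 (0.0586).

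Zbtb20 was graded rather than restricted. Its WT libraries had 361.1, 289.0 and 345.2 CPM in the hippocampus, 215.9, 152.1 and 163.6 CPM in the striatum and 57.6, 64.5 and 95.6 CPM in the frontal cortex. The hippocampus was above the frontal cortex by 4.56-fold in WT and 4.91-fold in Pcm1-/- mice, and above the striatum by 1.87-fold and 1.86-fold, and all 4 differences were called. The WT and Pcm1-/- means of each region were neighbors in the order of the 6 groups, with overlapping libraries.

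Calb1 and Wfs1 did not mark the hippocampus in these libraries. Calb1 was highest in the striatum, at 330.4, 348.0 and 296.9 CPM in WT, against 154.4, 148.7 and 187.3 CPM in WT frontal cortex and 91.8, 132.6 and 119.3 CPM in WT hippocampus. WT hippocampus was 2.85-fold below WT striatum (log2 −1.51, SE 0.142, adjusted p = 1.89e-05) and 1.43-fold below WT frontal cortex (−0.52, SE 0.140, adjusted p = 0.0189). The difference from the frontal cortex was −0.40 with an adjusted p of 0.0697 without WT frontal cortex replicate 3, and in Pcm1-/- mice it was −0.12 (SE 0.117, adjusted p = 0.450) with all libraries and −0.28 (adjusted p = 0.0118) without Pcm1-/- hippocampus replicate 2. Wfs1 had 174.1, 140.9 and 174.2 CPM in WT hippocampus, 157.0, 131.2 and 214.5 CPM in WT frontal cortex and 184.6, 217.7 and 178.7 CPM in WT striatum, and none of the 3 regional differences was called in WT. In Pcm1-/- mice Wfs1 was higher in the hippocampus than in the frontal cortex (log2 0.56, SE 0.144, adjusted p = 0.00987) and lower than in the striatum (−0.39, SE 0.143, adjusted p = 0.0458). With the animal as a block the last of these was no longer called (−0.38, adjusted p = 0.0629), and leaving out single Pcm1-/- libraries moved it between −0.50 and −0.24 (adjusted p from 0.0176 to 0.183). The largest regional difference of Wfs1 lay between Pcm1-/- frontal cortex and striatum, whose libraries did not overlap (log2 −0.95, SE 0.144, edgeR's test, adjusted p = 0.000243).

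**Figure D1:**
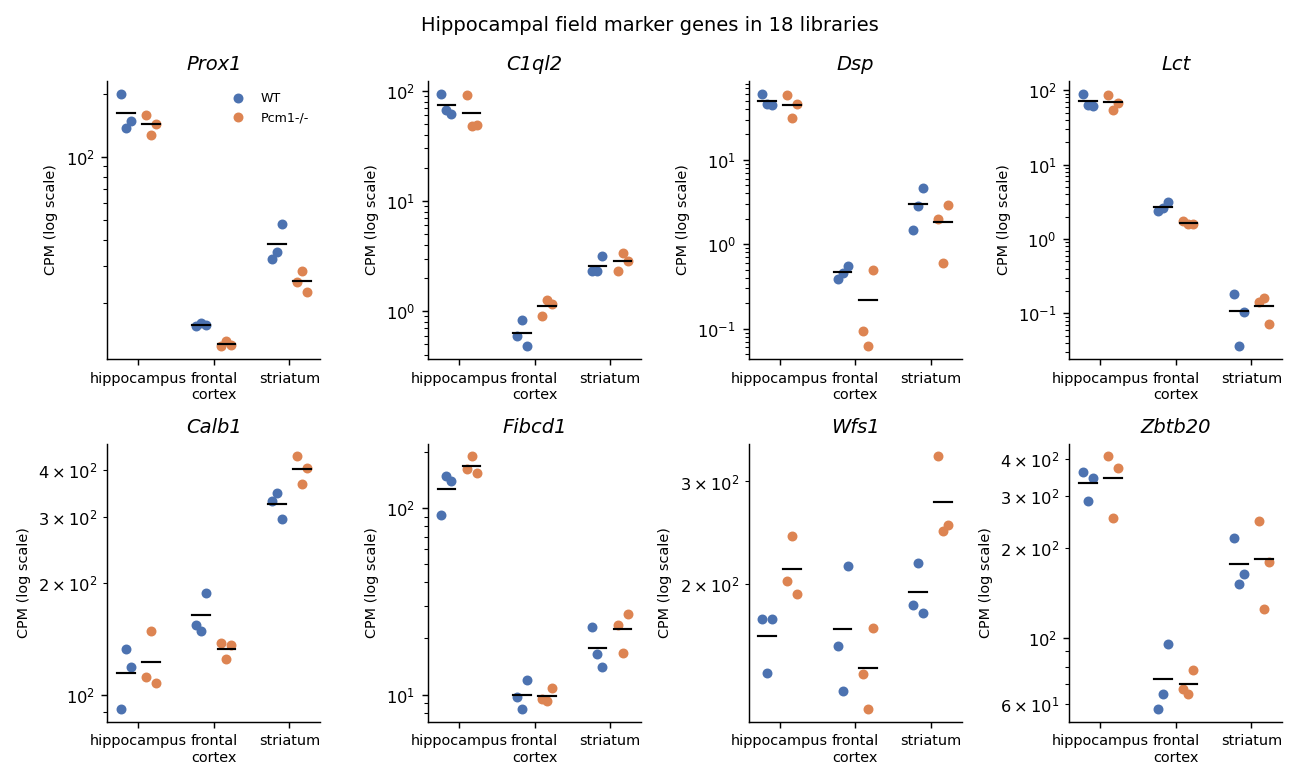
Level of each gene in the 18 libraries, in CPM on log axes whose range differs between panels. Points are libraries (blue, WT; orange, Pcm1-/-; 3 per group) and black lines are group means. Prox1, C1ql2, Dsp, Lct and Fibcd1 stand highest in the hippocampus without overlap, and Calb1 is highest in the striatum. Wfs1 is highest in Pcm1-/- striatum, without overlap with another group, while its WT groups overlap between neighbors.

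Read across all 8 genes, hippocampus and frontal cortex differed in 7 of 8 in WT (6 higher in the hippocampus, 1 lower) and in 7 of 8 in Pcm1-/- mice (all higher). Of all genes 14.5% were higher and 15.3% lower in WT, and 20.2% and 21.2% in Pcm1-/- mice. The median log2 fold change of the 8 was 3.50 in WT, against −0.01 over all genes. Hippocampus and striatum differed in 7 of 8 in WT (6 higher, 1 lower), where 29.2% of all genes did (14.8% higher, 14.4% lower), and in 8 of 8 in Pcm1-/- mice (6 higher, 2 lower), where 45% did (23.1% higher, 21.9% lower). Frontal cortex and striatum differed in 7 of 8 in WT and in 8 of 8 in Pcm1-/- mice, against 41.5% and 54.3% of all genes. These comparisons share libraries with each other, and the 2 genotypes come from different animals. Within a genotype the 3 regions come from the same animals, and the main tests did not use this pairing.

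**Figure D2:**
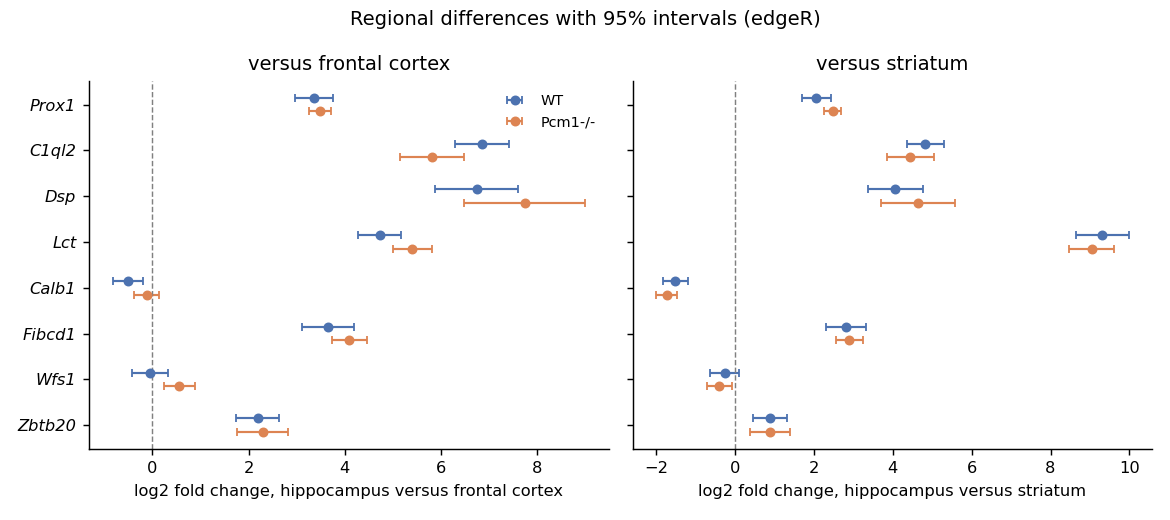
Log2 fold change between hippocampus and frontal cortex (left) and between hippocampus and striatum (right), fitted separately in WT (blue) and Pcm1-/- (orange) libraries, 3 per region, with bars for 95% intervals. The values of both genotypes lie side by side for each gene, from −1.72 for Calb1 to 9.32 for Lct against the striatum.

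Other genes of the hippocampal fields gave the setting for these values. Of 8 further granule cell genes, 3 were higher and 1 lower in WT hippocampus than in WT frontal cortex (median log2 fold change 0.32, against −0.01 over all genes), and of all genes 14.5% were higher and 15.3% lower. Tdo2, the tryptophan-degrading dioxygenase used as a granule cell marker, was 8.28-fold higher and Dock10 was 4.78-fold higher. Of 6 further CA1 genes, 4 were higher and 2 lower, with Ndst4, a heparan sulfate enzyme, 27.0-fold higher and Spink8, a protease inhibitor, 18.2-fold higher. Among 8 CA2 genes 7 were higher, including the neurotrophin Ntf3 (8.56-fold) and the vasopressin receptor Avpr1b, at 0.504 to 0.809 CPM in WT hippocampus against 0, 0 and 0.0369 CPM in WT frontal cortex. Among 8 CA3 genes 6 were higher and 1 lower, with Iyd 57.7-fold and Rnf182 4.91-fold higher. Calb2 and Nmb, of 3 genes listed for hilar mossy cells, were 4.05-fold and 2.22-fold higher. Of 5 tested genes of immature granule neurons 2 were higher and 1 lower, where Igfbpl1 was 5.63-fold higher and the migration gene Dcx 2.94-fold lower. Of 6 genes of the ventral hippocampus 2 were higher and 1 lower, with Dcn 3.35-fold higher and Coch 4.61-fold lower. Of 4 genes of the dorsal hippocampus 3 were higher, with Lct and Spink8 ahead, and the fourth, Wfs1, was not called.

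The genotypes were then compared within each region. None of the 8 genes differed between Pcm1-/- and WT hippocampus at an adjusted p under 0.05, a threshold that 0.0171% of all genes passed. Of all genes, 849 were higher and 887 lower in Pcm1-/- mice at an unadjusted p under 0.05, of the 8 only Wfs1 was, and DESeq2, another count model, called 0 of the 8. In a homogenized region, fewer cells of a type and less RNA per cell cannot be told apart.

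The means of Prox1, C1ql2, Dsp and Lct lay below those of WT, with overlap between genotypes and no call. Prox1 had 159.0, 127.6 and 144.1 CPM in the Pcm1-/- libraries, within or just under the WT values (log2 fold change −0.19, SE 0.153, adjusted p = 0.694). C1ql2 had 90.9, 47.9 and 49.5 CPM (−0.26, SE 0.267, adjusted p = 0.763), Dsp 58.4, 30.9 and 45.8 CPM (−0.17, SE 0.227, adjusted p = 0.815) and Lct 86.4, 54.6 and 66.6 CPM (−0.07, SE 0.198, adjusted p = 0.921). Without WT replicate 1, C1ql2 stood at −0.05 and Prox1 at −0.01, and without Pcm1-/- replicate 1, C1ql2 stood at −0.64. The interval of the C1ql2 difference ran from −0.88 to 0.36, so a change of up to about that size could not be told from none. Without Pcm1-/- replicate 2, Dsp stood at 0.04 and Lct at 0.08, and without WT replicate 1, Lct stood at 0.13. Calb1 had 111.9, 148.7 and 108.0 CPM (0.08, SE 0.161, adjusted p = 0.880), and turned to −0.05 and −0.07 without WT replicate 1 or Pcm1-/- replicate 2.

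For each of these 4 genes, the libraries of either genotype ranged more widely than the genotype means differed. Replicate 1 was the highest for all 4, and for Zbtb20, in both WT and Pcm1-/- hippocampus. Summed, the 4 genes gave 445.1, 313.3 and 317.2 CPM in WT and 394.7, 261.0 and 306.0 CPM in Pcm1-/- libraries. The sum of Fibcd1 and 6 other CA1 genes ran the other way in WT, at 322.3, 514.6 and 441.7 CPM, with 552.7, 667.0 and 501.8 CPM in Pcm1-/- libraries. The ratio of C1ql2 to Fibcd1 within a library, which does not depend on library size, was 1.03, 0.454 and 0.442 in WT and 0.559, 0.254 and 0.323 in Pcm1-/- hippocampus. It was thus highest in replicate 1 of each genotype, and the genotypes overlapped. The deviations of same-numbered WT and Pcm1-/- hippocampus libraries from their group means correlated at 0.12, 0.61 and 0.28, and those of differently numbered ones at −0.55 to 0.31, so that only the replicate 2 pair stood apart. The replicate 2 libraries were also those with Y-linked counts (Ddx3y at 61.0 CPM in WT and 62.7 CPM in Pcm1-/- hippocampus). The part of this in their correlation was not tested. Within the 3 same-numbered pairs, each of 2 different animals, C1ql2 and Prox1 were below WT in 3 of 3 and Dsp and Lct in 2 of 3. Of all genes, 17.8% were below and 24.3% above WT in every pair. The ratio was below WT in 3 of 3, but C1ql2 is its numerator and it is not a separate result. With the replicate number as a block none of the 8 genes was called.

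Fibcd1 and Wfs1, both listed for CA1, were the 2 members whose hippocampus libraries did not overlap between genotypes. Fibcd1 had 162.6, 188.9 and 153.4 CPM in Pcm1-/- against at most 148.5 CPM in WT (log2 fold change 0.40, SE 0.175, 95% interval −0.01 to 0.80, unadjusted p = 0.0543, adjusted p = 0.511). Wfs1 had 202.7, 242.0 and 192.4 CPM against at most 174.2 CPM (0.36, SE 0.121, interval 0.08 to 0.64, unadjusted p = 0.0179, adjusted p = 0.433). Neither passed the adjusted threshold, and groups did not overlap for 17.1% of all genes in this comparison (10.6% with Pcm1-/- higher, 6.46% lower). Fibcd1 was 0.21 without WT replicate 1, the library with the lowest value, and 0.16 was the difference for Wfs1 without the 2 libraries that had Y-linked counts. The 6 other CA1 genes were all above 0 (median 0.40), none was called, and 4 of them did not overlap between genotypes (Pou3f1, Lefty1, Ndst4 and Spink8, named after their values were seen). Outside the hippocampus, Wfs1 stood at 0.52 in the striatum, again without overlap, and at −0.23 in the frontal cortex. Fibcd1 stood at 0.33 and −0.03 there, with overlap in both.

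Zbtb20 had 407.4, 252.7 and 373.3 CPM in Pcm1-/- hippocampus, a spread that held all 3 WT values (0.04, SE 0.182, adjusted p = 0.956). No gene of the other hippocampal lists was called in the hippocampus. Of 8 further granule cell genes 3 were above 0 and 5 below (median −0.01), of 8 CA2 genes 4 and 4 (median 0.05), of 8 CA3 genes 6 and 2 (0.15), of 3 mossy cell genes 1 and 2 (−0.51), of 5 immature granule neuron genes 4 and 1 (0.34), of 6 ventral genes 2 and 4 (−0.32) and of 4 dorsal genes 3 and 1 (0.36).

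Transcripts of neighboring tissue also differed between the same libraries. All 5 thalamus genes were below 0 in Pcm1-/- against WT hippocampus (median log2 fold change −1.49, none called), and their summed level was 221.3 to 556.8 CPM in WT and 94.1 to 272.2 CPM in Pcm1-/- libraries. All 7 choroid plexus genes were below 0 as well (median −0.60, none called) and summed to 2172 to 6341 CPM in WT and 224.1 to 4193 CPM in Pcm1-/- libraries. The same held for all 5 oligodendrocyte genes (median −0.59, none called), which summed to 4554 to 9209 CPM and 3461 to 5621 CPM. Of 5 genes of cortical layer neurons 2 were above and 3 below 0 (median −0.42, none called), and they summed to 126.4 to 160.8 CPM in WT and 125.4 to 166.7 CPM in Pcm1-/- libraries. The 3 below 0, Rorb, Cux2 and Rspo1, named here after their values were seen, lay under WT without overlap, as did 6.46% of all genes. The part of this tissue in the values of the 8 genes was not tested.

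**Figure D3:**
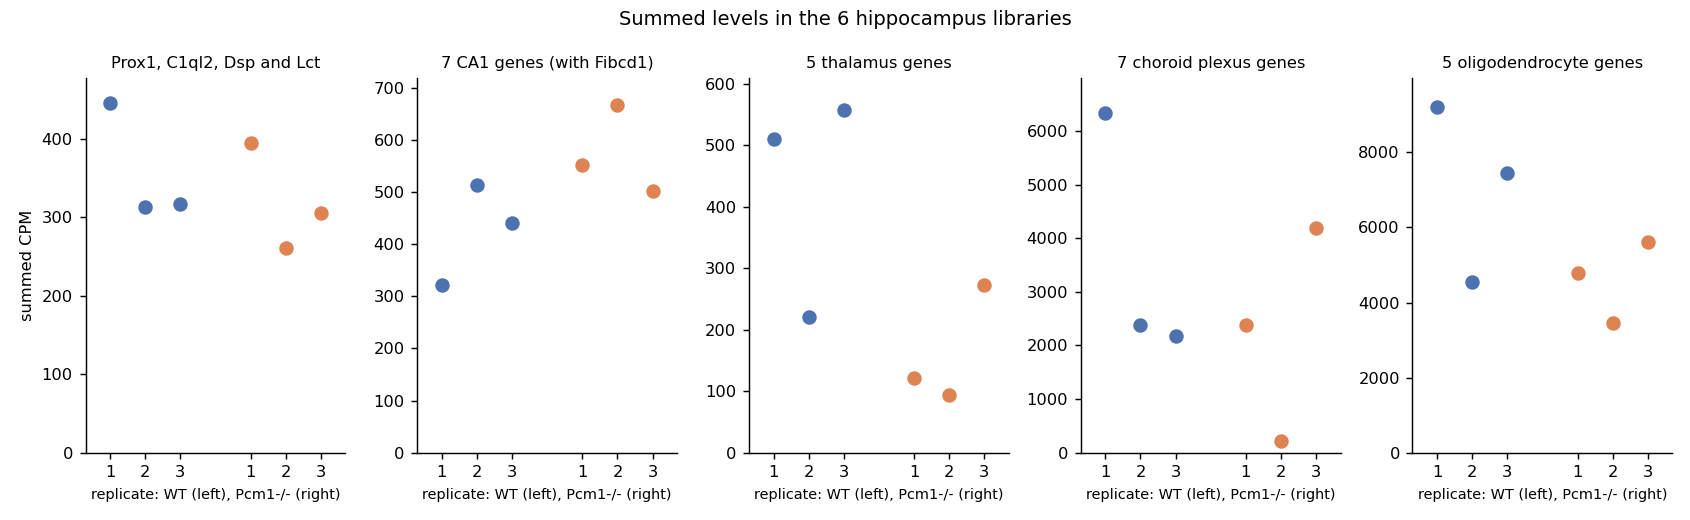
Summed CPM of 5 gene lists in each of the 6 hippocampus libraries (blue, WT replicates 1 to 3; orange, Pcm1-/- replicates 1 to 3), on linear axes from 0. The dentate sum is highest in replicate 1 of either genotype, at 445.1 and 394.7 CPM, and Pcm1-/- replicate 2 has the highest CA1 sum, 667.0 CPM, and the lowest choroid plexus sum, 224.1 CPM.

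In the frontal cortex none of the 8 genes was called by edgeR's test either, while 1.74% of all genes were. At an unadjusted p under 0.05 there were 4 (Prox1, C1ql2, Lct and Calb1), where 1375 of all genes were higher and 1310 lower. The groups did not overlap for 4 of them, 1 higher and 3 lower, against 21.3% of all genes (12% higher, 9.28% lower). Prox1 had 12.4, 13.2 and 12.7 CPM in Pcm1-/- libraries, all below the WT range (log2 fold change −0.31, SE 0.0717, adjusted p = 0.0766). Lct had 1.72, 1.57 and 1.58 CPM, also all below WT (−0.74, SE 0.166, adjusted p = 0.0691), on 45 to 55 reads per library against 68 to 85. Calb1 had 137.8, 124.7 and 136.5 CPM (−0.30, SE 0.0894, adjusted p = 0.148), and stood at −0.19 without WT replicate 3. It was called by DESeq2 (adjusted p = 0.0390), which called 690 of all genes here. With the replicate number as a block edgeR's test called it too (adjusted p = 0.0407), where 665 of all genes were called. C1ql2 went the other way, at 0.909, 1.27 and 1.16 CPM (0.80, SE 0.270, adjusted p = 0.206), on 29 to 41 reads against 13 to 22. These levels of Lct and C1ql2 are a small fraction of those in the hippocampus.

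The other 4 overlapped between genotypes in the frontal cortex. Dsp had 3, 2 and 14 reads in Pcm1-/- libraries (−1.15, SE 0.623, adjusted p = 0.430), and Fibcd1 (−0.03), Wfs1 (−0.23) and Zbtb20 (−0.06) had adjusted p-values of 0.940, 0.576 and 0.905. Without Pcm1-/- replicate 3 Dsp stood at −2.52, and without Pcm1-/- replicate 2 at −0.70, while Wfs1 stood at −0.01 without WT replicate 3. Genes listed for other fields and cells were called here, where the number of all genes called went from 306 to 1 when both libraries with Y-linked counts were left out, an alternative chosen after the data were seen. Dock10 was lower in Pcm1-/- frontal cortex (log2 −0.43, SE 0.0811, adjusted p = 0.0409), with 27.9, 25.3 and 24.8 CPM in WT and less in each Pcm1-/- library, while of the 8 further granule cell genes 5 were above and 3 below 0 (median 0.15). Coch, listed for CA3 and for the ventral hippocampus, was higher (0.48, SE 0.0785, adjusted p = 0.0240), as were the dopamine receptor gene Drd1 (0.68, SE 0.0985, adjusted p = 0.0177) and the interneuron neuropeptide gene Sst (0.43, SE 0.0832, adjusted p = 0.0426). Each was the only gene of its list that was called. The CA3 list had 6 genes above and 2 below 0 (median 0.09), the ventral list 3 and 3 (0.02), the striatal projection neuron list 3 and 2 (0.08) and the interneuron list 5 and 0 (0.16). The 5 oligodendrocyte genes, summed, gave 1757 to 2388 CPM in WT and 1572 to 1661 CPM in Pcm1-/- frontal cortex, and choroid plexus genes were low in all 6 libraries (summed, 5.85 to 11.03 CPM in WT and 3.86 to 5.76 CPM in Pcm1-/- mice).

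In the striatum, where 0.0285% of all genes were called, none of the 8 was by edgeR's test. The groups did not overlap for 3 of them, 2 higher and 1 lower, against 19% of all genes (9.6% higher, 9.39% lower), and the same 3 had an unadjusted p under 0.05, where 1147 of all genes were higher and 1224 lower. Prox1 had 25.1, 28.5 and 22.7 CPM in Pcm1-/- against 32.6 to 47.6 CPM in WT (log2 fold change −0.59, SE 0.149, adjusted p = 0.194), and −0.41 (adjusted p = 0.160) without WT replicate 3. Calb1 had 435.5, 368.1 and 406.5 CPM against 296.9 to 348.0 CPM (0.31, SE 0.0884, adjusted p = 0.213). Wfs1 had 331.2, 246.4 and 253.0 CPM against 178.7 to 217.7 CPM (0.52, SE 0.127, adjusted p = 0.185). DESeq2 gave these 3 genes adjusted p-values of 0.00900, 0.0368 and 0.00611 with nearly equal fold changes. It called 488 of all genes in this comparison, where edgeR's test called 5. All 5 striatal projection neuron genes were above 0 as well (median 0.30, none called), and their part in the Calb1 and Wfs1 values was not tested. Lane, which is tied to genotype in this region, cannot be told apart from these differences. All 7 choroid plexus genes (median −3.44), all 5 thalamus genes (−1.33) and all 5 oligodendrocyte genes (−0.40) were below 0 in the same comparison, none of them called. Without WT replicate 3, which carried most of the choroid plexus signal, Calb1 stood at 0.25 and Wfs1 at 0.46. Dsp (−0.72), C1ql2 (0.13), Lct (0.22), Fibcd1 (0.33) and Zbtb20 (0.05) overlapped between genotypes. Dsp was −0.26 without WT replicate 3 and −1.22 without Pcm1-/- replicate 3. Fibcd1 was 0.17 without Pcm1-/- replicate 3 and 0.55 without WT replicate 1.

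**Figure D4:**
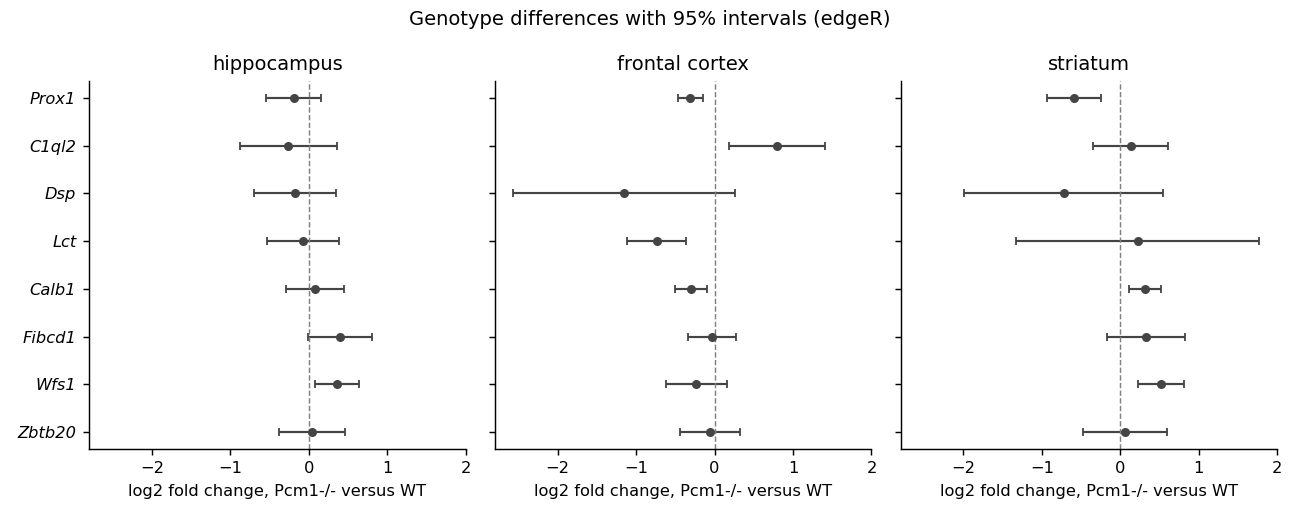
Log2 fold change of each gene between Pcm1-/- and WT mice in the 3 regions, with bars for the 95% interval of edgeR's fit (3 libraries per group). Fibcd1 (0.40) and Wfs1 (0.36) have the highest values in the hippocampus, Prox1 lies below 0 in every region, and no value passed the adjusted threshold.

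Whether the genotype difference itself differed between regions was tested in a fit of all 18 libraries. None of the 8 genes passed for hippocampus against frontal cortex, where 0.0057% of all genes did, and 3 of the 8 had an unadjusted p under 0.05, where 421 of all genes were above and 544 below 0. These were Wfs1 (log2 difference 0.60, SE 0.239, unadjusted p = 0.0220, adjusted p = 0.794), Lct (0.68, SE 0.283, unadjusted p = 0.0293, adjusted p = 0.853) and C1ql2 (−1.05, SE 0.473, unadjusted p = 0.0413, adjusted p = 0.894). The Wfs1 difference was 0.39 without WT frontal cortex replicate 3. For hippocampus against striatum 0 genes of any kind passed in edgeR's test, with 432 above and 351 below 0 at an unadjusted p under 0.05, and DESeq2 called 0 of the 8. The lowest unadjusted p among the 8 was that of Prox1 (log2 difference 0.42, SE 0.200, unadjusted p = 0.0520, adjusted p = 1.00), with a difference of 0.24 without WT striatum replicate 3. These comparisons used the same hippocampus libraries, and the main fit did not use the pairing of regions by animal.

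For each member, the 2 genes with the most similar pattern were sought by the mean absolute difference of centered log2 CPM over the 18 libraries, among the 12870 genes whose average log2 CPM was 1 or more. Prox1 was closest to Mdga1, a synaptic adhesion gene (0.22), and to the monoamine transporter gene Slc29a4 (0.28). Mdga1 averaged 86.4 CPM in WT hippocampus, 10.1 in WT frontal cortex and 20.9 in WT striatum, the order that Prox1 had. C1ql2 and Dsp were each other's closest genes (0.71), followed for both by the CA1 gene Ndst4 (0.71 and 0.85). Lct had no close match, with Bhlhe22 at 1.33 and Shisa6 at 1.38. Fibcd1 was closest to the desmosome gene Pkp2 (0.32) and to Tspan18 (0.33), Zbtb20 to Icosl (0.23) and Nkain3 (0.24), Calb1 to Alcam (0.14) and 1700037H04Rik (0.15) and Wfs1 to Pcdh17 (0.15) and Hap1 (0.16). The 18 libraries come from 6 animals, and these distances only describe how alike the profiles were.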

How the data were processed

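RNA from frontal cortex, striatum and hippocampus was made into stranded mRNA libraries with a KAPA kit and sequenced. According to the submitters' processing notes and the methods of the study, reads were trimmed with Trim Galore and cutadapt, reads of at least 20 nt were kept and aligned with STAR to the mouse GRCm38 genome, and HTSeq counted them per gene. The values used are the whole-number read counts per Ensembl gene that the authors deposited, 1 file per library and not normalized. The strand setting of HTSeq is not given in the sources used here. Rows that name no gene were kept out of library sizes and tests. Reads in no feature were 8.99% to 11.6% and ambiguous reads 1.58% to 1.79% of the reads entering the counting.

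Genes with a count of at least 10 in at least 1 library were kept. Library sizes were scaled by TMM, and edgeR's quasi-likelihood test was fitted over all 17545 genes, within a region for the genotype comparisons, within a genotype for the regional comparisons and over all 18 libraries for differences between genotype effects. P-values were two-sided and adjusted by Benjamini-Hochberg, a gene was called at an adjusted p under 0.05, and intervals are 95% intervals of the fitted log2 fold change. edgeR 4.0.16, limma 3.58.1 and DESeq2 1.42.0 ran in R 4.3.3, with Python 3.11.15, pandas 2.3.3, numpy 2.4.6 and matplotlib 3.10.9 for the summaries. The fits were tested on simulated data first. Exon lengths and positions came from GENCODE M21, and log2 CPM for the likeness measure had a prior count of 2.

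The 8 members were named in every comparison. Of the other listed genes, those called between genotypes were named, with the 2 of each hippocampal list that differed most between WT hippocampus and WT frontal cortex and the 2 genes most like each member. The members and lists were chosen with earlier results of these data known. Alternatives were DESeq2, its size factors, other filters, a fit of all 18 libraries, lane, the replicate number or animal as a block, and leaving out each library. Lane within a region, leaving out both libraries with Y-linked counts and the comparison of the genotype effects of striatum and frontal cortex were added after the data were seen.

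Same-numbered WT and Pcm1-/- libraries correlated above 0.1 in each hippocampus pair (mean 0.34, lowest 0.12, against up to 0.31 for differently numbered ones), less clearly in the frontal cortex (lowest 0.03) and not by these numbers in the striatum (mean −0.07), where the WT numbers follow another order of the animals than in the other regions. With the WT libraries in the order of the other regions, the 3 striatum pairs correlated at 0.08, 0.47 and 0.35. The highest correlation between genotypes was 0.61 in hippocampus, 0.37 in frontal cortex and 0.47 in striatum. In each region that pair joined the 2 libraries with Y-linked counts. The replicate block used the numbers as labeled. The 3 regions of 1 animal are paired by origin, with a mean correlation of 0.27 in Pcm1-/- and 0.33 in WT mice. Replicate libraries differed by more than sampling noise (chi-square per degree of freedom 7.01 to 59.0 over 18 pairs).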

Additional observations from a re-analysis of the deposited data

Results flagged for a closer look

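Calb1 was higher in all 3 Pcm1-/- striatum libraries than in any WT striatum library (log2 fold change 0.31). It was lower in all 3 Pcm1-/- frontal cortex libraries than in any WT one (−0.30). Of all genes, 9.6% were higher without overlap in Pcm1-/- striatum, and 9.28% were lower without overlap in Pcm1-/- frontal cortex. The share of genes with both is not given here. The difference between the Calb1 genotype effects in striatum and frontal cortex was 0.61 on the log2 scale (SE 0.192, 95% interval 0.20 to 1.02, edgeR's quasi-likelihood test over all 18 libraries, unadjusted p = 0.00580, adjusted p = 0.731). It failed the correction over all genes, 0.0057% of which passed, where 362 genes were above and 567 below 0 at an unadjusted p under 0.05, and the comparison was added after the values of Calb1 were seen. In the same comparison the Wfs1 difference was 0.74 (SE 0.239, 95% interval 0.23 to 1.24, edgeR's quasi-likelihood test, unadjusted p = 0.00678, adjusted p = 0.743), and it was 0.52 to 0.89 when single libraries were left out. The other 6 genes had unadjusted p-values above 0.05. Over 25 alternatives, 1 of which added lane to the model, the Calb1 difference ran from 0.50 to 0.67. Within the striatum, lane and genotype cannot be told apart.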

How the results depend on the processing

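Of 221 recomputed counts of called members 218 were equal to the reported count or differed from it by 1 of 7 or 8. Of 816 regional fold changes 12 lost their call, Wfs1 between Pcm1-/- hippocampus and striatum in 9 alternatives, Fibcd1 between WT frontal cortex and striatum in 2 and Calb1 between WT hippocampus and frontal cortex in 1, and 2 gained one. The counts that moved further were the frontal cortex count, 1 in place of 0 with DESeq2 and with the replicate number as a block (Calb1, adjusted p = 0.0407; the numbers did not clearly pair the libraries there), and the striatum count, 3 in place of 0 with DESeq2. With the replicate or animal block 1 other call changed, that of Wfs1 in Pcm1-/- mice, which was also lost with DESeq2 size factors (adjusted p = 0.0533) and when all 18 libraries were fitted together (0.0804). Wfs1 between WT frontal cortex and striatum was called without WT frontal cortex replicate 3 (−0.43, adjusted p = 0.0334). The number of all genes called moved more: in the frontal cortex from 306 to 690 with DESeq2, 665 with the block, 505 without a filter, 176 with all 18 libraries fitted together, 95 when lane was added to that, 29 with lane within the region, 1 without both libraries with Y-linked counts and 11 to 825 when single libraries were left out. It moved in the hippocampus from 3 to 220 with DESeq2, 205 with all 18 fitted together, 160 when lane was added to that and 9 with the block. In the striatum it moved from 5 to 488 with DESeq2, 61 without a filter and 3 with the block. It was 54 there with all 18 fitted together, 8 when lane was added to that and 36 without both libraries with Y-linked counts. None of the values that changed sign was called. The Zbtb20 difference of genotype effects between hippocampus and striatum was −0.0137 with DESeq2, −0.0132 with its size factors, −0.36 with lane and −0.00285 with the animal block. With lane Zbtb20 was −0.0356 in the hippocampus (−0.0477 with lane within the region) and C1ql2 −0.15 in the striatum, and without the libraries with Y-linked counts Dsp was 0.17 and Lct −0.0179 in the striatum. Leaving out 1 library gave genotype differences in the hippocampus from −0.27 to 0.13 for Lct, −0.0704 to 0.19 for Calb1, −0.11 to 0.22 for Zbtb20 and −0.42 to 0.0400 for Dsp. It gave in the frontal cortex −0.14 to 0.12 for Fibcd1 and −0.20 to 0.19 for Zbtb20, and in the striatum −0.18 to 0.80 for Lct, −0.22 to 0.27 for Zbtb20 and −0.00628 to 0.30 for C1ql2. For hippocampus against frontal cortex, Wfs1 in WT ran from −0.19 to 0.18 and the Zbtb20 effect difference from −0.14 to 0.29. Effect differences between hippocampus and striatum ran from −0.21 to 0.28 for Zbtb20, −0.13 to 0.25 for Fibcd1, −0.85 to 0.13 for Lct and −0.24 to 0.0142 for Wfs1, and those between striatum and frontal cortex from −0.17 to 0.32 for Zbtb20 and −0.0866 to 1.78 for Dsp. The cause of these changes was not tested. Biological variation between replicates was 16.4% in the hippocampus, 13.8% in the striatum and 9.49% in the frontal cortex, and the reads behind Lct in the striatum and Dsp in the frontal cortex were too few for small differences to be seen.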
